A study of Mus musculus with 8 samples.

Results

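Glycolysis and the hypoxia response were followed through 40 genes of BV-2 cells, an immortalised mouse microglial line. The genes were taken by symbol. One list of 23 held the glucose and lactate transporters, the glycolytic enzymes and the PFKFB regulators. The other list of 17 held hypoxia-inducible factor 1 (HIF-1), its oxygen sensors and genes known to respond to hypoxia. All 40 symbols were found among the 46078 genes counted.

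Glycolysis breaks glucose down to pyruvate, which is either oxidised in mitochondria or reduced to lactate and exported. HIF-1 is a transcription factor whose alpha subunit is hydroxylated and degraded while oxygen is plentiful, so that its activity is set largely by the amount of protein and less by the amount of its mRNA. It is known to act on genes of glucose uptake, glycolysis, mitophagy and blood vessel growth, and macrophages and microglia that meet bacterial lipopolysaccharide (LPS) are known to take up more glucose and to release more lactate.

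Poly-A RNA was sequenced from 4 groups with 2 libraries each, 8 libraries in all, and the cells of every group spent 4 hours in serum-free DMEM. The control group received no agent and the LPS group received 100 ng/mL of LPS for 20 hours, the time the study's methods give. The AGE+LPS group received aged garlic extract (AGE, 0.5% by volume) from 1 hour before the same LPS. The FruArg+LPS group received 3 mM of FruArg, an arginine derivative present in that extract, from 1 hour before the same LPS. No group received AGE or FruArg without LPS. The depth, as the total of counts over all genes, came to 2707500 and 8995052 for control, 8720784 and 12069807 for LPS, 6795464 and 6669072 for AGE+LPS, and 4692715 and 5822113 for FruArg+LPS. At these depths a count of 3, used as the floor, stood for 0.249 to 1.11 CPM in a library, where CPM are counts scaled to the size of the library. Replicate 1 of every group was sequenced in lane 3 and replicate 2 in lane 6, so that the replicate number also marks the lane. The names of the replicate 2 libraries carry a further label that those of replicate 1 lack, so the number may mark more than the lane. Pairs of values are given in the order of replicates 1 and 2, as CPM normalised by the trimmed mean of M-values (TMM).

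The label of a microglial line was checked against marker genes. Of 13 markers of microglia and macrophages, 10 were over 3 counts in every library. Their summed level was 3159 and 3820.0 CPM in the control libraries, 3983 and 4644 with LPS, 4289.7 and 4962 with AGE+LPS, and 5259.6 and 5345 with FruArg+LPS. With LPS the largest rise in CPM was that of Adgre1, at 606 and 679 CPM in the control libraries and 1540.3 and 1809 with LPS. Cd68, Spi1 and Fcer1g were also higher in both LPS libraries than in both controls. Trem2, Tyrobp, Itgam and Csf1r were lower in both, as were the scarce Cx3cr1, P2ry12 and Tmem119. For Ptprc and Aif1 the control and LPS libraries overlapped. The part of these shifts in the results was not tested. The markers Tmem119 (0 to 6 counts), Cx3cr1 (0 to 43 counts) and P2ry12 (1 to 99 counts), which mark microglia in the brain, were at or near the floor in some or all libraries. For other cell types, 3 of 4 neuronal and 2 of 3 astrocyte markers had 0 counts in every library. The oligodendrocyte markers summed to at most 1.51 CPM in a library and the endothelial markers to at most 1.61 CPM. The 3 fibroblast markers each had at most 3 counts in every library.

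The glycolytic genes took more of the counts than the hypoxia genes. They summed to 4745 and 4970.0 CPM in the control libraries, 11744 and 9083 with LPS, 9694.5 and 8759 with AGE+LPS, and 13371 and 13745 with FruArg+LPS. The hypoxia genes summed to 695 and 750.3 CPM in the control libraries, 1699 and 1812 with LPS, 1082 and 1373 with AGE+LPS, and 1589 and 1621 with FruArg+LPS. Both sums were therefore lowest in the control libraries, and among the libraries with LPS the hypoxia sum was lowest with AGE+LPS. Levels of different genes were compared per kilobase (kb) of exon, as the mean ± SD of the 2 libraries. On this scale, with LPS, aldolase Aldoa stood at 806 ± 200.2 CPM per kb, pyruvate kinase Pkm at 403 ± 71.95, triosephosphate isomerase Tpi1 at 368 ± 26.2 and hexokinase Hk3 at 307 ± 78.6. The highest of the hypoxia list with LPS were P4ha1 at 136 ± 14.01 CPM per kb and Bnip3 at 103 ± 3.67. How reads that match near copies of a gene were counted is not stated and bears on such levels.

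Of the 40 members, 36 had enough counts to be tested in each comparison. The enolase Eno2 had 8 counts over all libraries, the lactate dehydrogenase Ldhb 0, the prolyl hydroxylase Egln3 32 and the peptide gene Adm 4.

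The comparison of LPS with control asked what LPS alone did to these genes. A gene was counted as a differentially expressed gene (DEG) when its adjusted p in edgeR was below 0.05 and it changed at least 2-fold. By this rule 19 members were up-regulated by LPS, while 11.5% of all 12888 genes tested were, and 2 members were down-regulated, while 11.1% of all genes tested were. Without the fold minimum the counts were 23 up and 2 down, against 16.3% and 14.3% of all genes. The glycolytic list had 10 up-regulated and 2 down-regulated of 21 tested, with a median log2 fold change of 0.96. The hypoxia list had 9 up-regulated of 15 tested, with a median of 1.51, and the median over all genes was 0.0197. In bulk cultures a larger share of cells carrying a transcript and more transcript per cell cannot be told apart. With 2 libraries a group, the p-values rest on the spread between these libraries, which edgeR and DESeq2 share in part over all genes. A small p, above all with the replicate number in the fit, can thus stand beside replicates of a gene that lie apart. The p-values do not cover cultures beyond these. Scaling by library size in place of TMM put the median of all genes at -0.40 and gave 15 members up and 3 down. It ended the calls of Tpi1, Pgk1, Pgam1 and Egln1, added Aldoc as down-regulated, and left 12 of the 15 hypoxia genes with a positive change where TMM gave 15. Without replicate 1 of LPS 16 members were up-regulated, and without replicate 2 of LPS 22 were. For library size scaling and for fits with 1 library left out, the share of all genes called is not given here. Their counts of members thus have no background beside them.

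Slc2a1 (ENSMUSG00000028645, chr4:119108711-119137983), the glucose transporter GLUT1, was at 42.8 and 38.2 CPM in the control libraries, 364 and 249 with LPS, 176 and 179.9 with AGE+LPS and 357 and 304 with FruArg+LPS. The LPS libraries lay far above the controls, both AGE+LPS libraries lay under both LPS libraries, and the FruArg+LPS libraries overlapped the LPS range. The log2 fold change of Slc2a1 with LPS was 2.93 (SE 0.26, edgeR adjusted p 7.42e-05). Of the hexokinases, which trap glucose in the cell as glucose phosphate, Hk3 was at 365 and 362 CPM in the control libraries, 1335 and 925 with LPS, 902 and 638 with AGE+LPS and 1055 and 1147 with FruArg+LPS. Control and LPS did not overlap, both AGE+LPS libraries lay under both LPS libraries, and the FruArg+LPS libraries lay within the LPS range. The log2 fold changes with LPS were 1.64 for Hk3, 1.52 for Hk2 and 1.46 for Hk1, with edgeR adjusted p of 0.00124, 0.00108 and 0.000658.

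The isoforms of phosphofructokinase, the enzyme of the committed step, moved apart. Pfkl, the liver-type isoform, was at 74.7 and 65.6 CPM in the control libraries, 400.1 and 269 with LPS, 205 and 188 with AGE+LPS and 321 and 355 with FruArg+LPS. Pfkm (ENSMUSG00000033065, chr15:98092589-98132451), the muscle-type isoform, was at 30.1 and 26.4 CPM in the control libraries, 7.57 and 5.96 with LPS, 14.7 and 15.3 with AGE+LPS and 14.5 and 11.1 with FruArg+LPS. Pfkl was thus lowest and Pfkm highest in the control libraries, with no overlap with LPS for either. Pfkl rose with LPS by 2.27 on the log2 scale (SE 0.26, edgeR adjusted p 0.000237). The platelet-type Pfkp had a log2 fold change of 1.51 (edgeR adjusted p 0.000725). Pfkm had one of -2.05 (SE 0.28, edgeR adjusted p 0.000685). The regulators Pfkfb3 and Pfkfb4, which set the level of an activator of phosphofructokinase, did not pass the test.

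Of the other glycolytic enzymes, Tpi1 and phosphoglycerate kinase Pgk1 were DEGs, with log2 fold changes of 1.32 and 1.26 (edgeR adjusted p 0.00175 and 0.00159). Phosphoglycerate mutase Pgam1 was at the edge of the call, with 1.11 (SE 0.37, edgeR adjusted p 0.0485). Its call was lost with the replicate block (0.97), where a term for the replicate number enters the fit, and its change was 0.53 without replicate 1 of LPS and 0.91 without replicate 2 of control. Aldoa (0.96), Pkm (0.92) and lactate dehydrogenase Ldha (0.75) passed the adjusted p in edgeR (0.0225, 0.0202 and 0.0285) but not the fold minimum. Without replicate 2 of LPS, Aldoa (1.22), Pkm (1.12) and Ndrg1 of the hypoxia list were called higher too. Glucose phosphate isomerase Gpi1, Aldoc, Gapdh and Eno1 did not pass the test with LPS.

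The carriers of lactate moved in opposite directions. Slc16a3, the lactate exporter MCT4, was at 96.7 and 98.8 CPM in the control libraries, 519 and 361 with LPS, 418 and 415 with AGE+LPS and 774 and 701 with FruArg+LPS. Slc16a1, the carrier MCT1, was at 170.1 and 189 CPM in the control libraries, 96.6 and 80.2 with LPS, 67.6 and 83.03 with AGE+LPS and 59.5 and 49.5 with FruArg+LPS. Control and LPS did not overlap for either carrier, and the FruArg+LPS libraries were the highest of all 8 for Slc16a3 and the lowest for Slc16a1. The log2 fold change of Slc16a3 with LPS was 2.18 (SE 0.25, edgeR adjusted p 0.000218). That of Slc16a1 was -1.02 (SE 0.21, edgeR adjusted p 0.0051). Slc16a1 passed the fold minimum narrowly, and its change was -0.986 without replicate 2 of control and -0.86 without replicate 2 of LPS, short of the call, which was also lost with DESeq2 and with the filter of at least 1 count.

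Among the hypoxia genes, the mitophagy receptor Bnip3 (ENSMUSG00000078566, chr7:138890836-138909519) had one of the largest fitted changes with LPS. It was at 13.5 and 15.2 CPM in the control libraries, 239 and 227 with LPS, 70.6 and 109 with AGE+LPS and 230.3 and 203 with FruArg+LPS. The control libraries were lowest, the AGE+LPS libraries lay between them and the LPS libraries without overlap, and the FruArg+LPS libraries overlapped the LPS range. With LPS Bnip3 rose by 4.01 on the log2 scale (SE 0.22, edgeR adjusted p 6.33e-06). P4ha1, a subunit of collagen prolyl hydroxylase, was at 109.6 and 129 CPM in the control libraries, 521 and 602 with LPS, 268 and 352 with AGE+LPS and 350.1 and 451 with FruArg+LPS. All co-treated libraries of P4ha1 lay under both LPS libraries and over both controls. Its log2 fold change with LPS was 2.24 (SE 0.21, edgeR adjusted p 9.2e-05). The related P4ha2 had 1 and 2 counts in the control libraries, 24 and 41 with LPS, 39 and 37 with AGE+LPS and 10 and 43 with FruArg+LPS. From 3 counts in the control group to 65 with LPS, P4ha2 was 16.2-fold higher, with a 95% counting interval of 5.29 to 80.4. Intervals and floors cover counting error only.

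Ankrd37 (ENSMUSG00000050914, chr8:45996902-46005707), an ankyrin repeat protein, was at 4.22 and 3.69 CPM in the control libraries, 27.7 and 19.02 with LPS, 4.76 and 7.24 with AGE+LPS and 11.99 and 15.00 with FruArg+LPS. Kdm3a (ENSMUSG00000053470, chr6:71588972-71632990), a histone demethylase that needs oxygen, was at 20.8 and 28.6 CPM in the control libraries, 59.9 and 82.3 with LPS, 26.7 and 40.8 with AGE+LPS and 35.3 and 48.4 with FruArg+LPS. In both genes the LPS libraries were the highest, and the AGE+LPS libraries stood nearer to the controls than to LPS, in Kdm3a overlapping the control range. The log2 fold change with LPS was 2.60 for Ankrd37 (SE 0.34, edgeR adjusted p 0.000515). It was 1.52 for Kdm3a (SE 0.25, edgeR adjusted p 0.00163).

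The growth factor Vegfa, which drives blood vessel growth, was at 26.8 and 23.9 CPM in the control libraries, 102 and 85.4 with LPS, 80.9 and 74.6 with AGE+LPS and 148 and 112 with FruArg+LPS. Higd1a, a protein of the mitochondrial inner membrane, was at 10.8 and 8.33 CPM in the control libraries, 45.8 and 28.2 with LPS, 26.8 and 17.9 with AGE+LPS and 28.3 and 33.2 with FruArg+LPS. The mTOR inhibitor Ddit4 was at 7.83 and 7.95 CPM in the control libraries, 36.97 and 14.7 with LPS, 27.97 and 21.7 with AGE+LPS and 35.1 and 25.3 with FruArg+LPS. For all 3 genes every library with LPS was over both controls, and the LPS replicates of Ddit4 lay far apart. Their log2 fold changes with LPS were 1.90 for Vegfa, 1.99 for Higd1a and 1.72 for Ddit4, with edgeR adjusted p of 0.000315, 0.00175 and 0.0151. The change of Ddit4 was 0.89 without replicate 1 of LPS, under the fold minimum.

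Hif1a (ENSMUSG00000021109, chr12:73901375-73947530), which encodes the regulated subunit of HIF-1, was at 146 and 189 CPM in the control libraries, 204 and 318 with LPS, 225 and 353 with AGE+LPS and 202 and 254 with FruArg+LPS. Replicate 2 was the higher one in every group, and every library with LPS was over both controls, the lowest of them by less than the gap between the control replicates. The log2 fold change of Hif1a with LPS was 0.64 (SE 0.24, edgeR adjusted p 0.076), which missed the threshold. With the replicate block it was 0.62 (edgeR adjusted p 0.00099), past the adjusted p but short of the fold minimum. Egln1, a prolyl hydroxylase that marks HIF-1 alpha for degradation, was a DEG at 1.03 (edgeR adjusted p 0.00961), with 0.80 without replicate 2 of control and 0.90 without replicate 1 of LPS, both short of the call. Its relative Egln3 had 0 counts in the control group and 11 with LPS, at least 2.73-fold higher against a floor of 3 counts over the group. Of the 11 counts 9 were in replicate 1, and the 2 of replicate 2 are under the floor, so this bound rests on a single library. The cytokine Mif passed the adjusted p alone, with 0.71 (edgeR adjusted p 0.0477). Pdk1, Pdk3, Bnip3l and Ndrg1 did not pass the test with LPS.

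**Figure D1:**
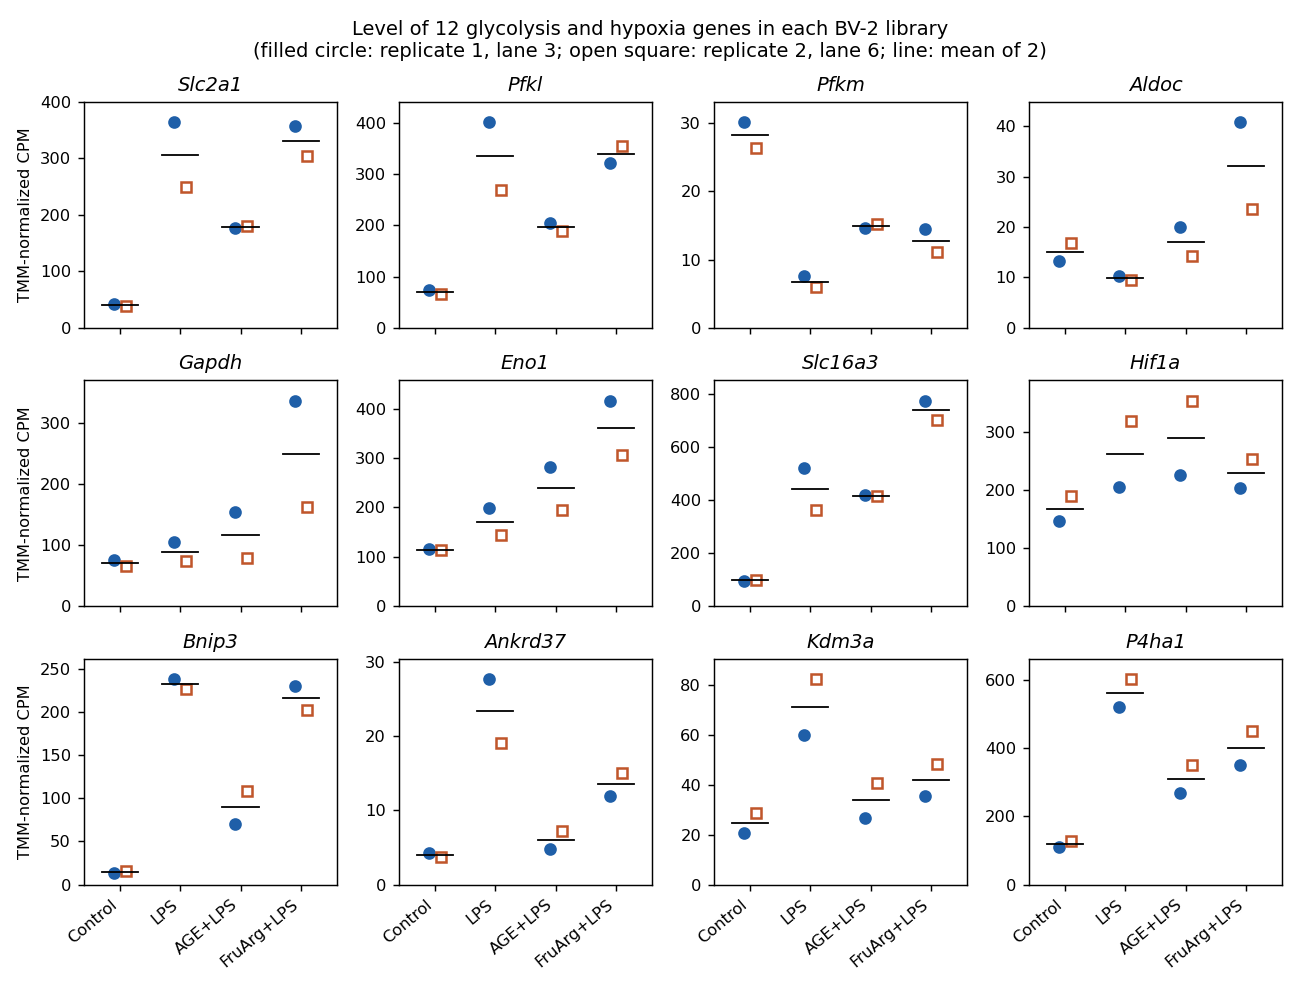
Each point is 1 library and each panel 1 gene, with TMM-normalised CPM on the vertical axis and the 4 groups on the horizontal axis, and the short line is the mean of 2 libraries. Bnip3 in the AGE+LPS libraries (70.6 and 109 CPM) lay between control and LPS, and Gapdh was highest with FruArg+LPS (337 and 163 CPM).

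The comparison of AGE+LPS with LPS asked what the extract changed in cells that also received LPS. It shares the LPS libraries with LPS vs control. edgeR called 0 members higher and 0 lower, while 0.292% and 0.503% of all 12317 genes tested were called. At an unadjusted p below 0.05, 2 members were higher and 8 lower, the latter from both lists, against 8.58% and 9.23% of all genes, so that the higher count was no larger than its background. DESeq2, which tested 39 members and 21850 genes in all, called 0 higher and 3 lower, against 0.984% and 1.44%, and the 3 were Bnip3, Ankrd37 and Kdm3a. With the replicate block edgeR called the same 3 lower, against 4.82% of all genes, and Pfkm higher, against 4.91%, so that 1 of 36 members higher lay under the background. DESeq2 with the block called 1 higher and 3 lower, against 1.57% and 1.77%. Without the fold minimum the block in edgeR gave 4 members higher and 15 lower, against 19.3% and 21.0% of all genes, the 15 again from both lists, so that the higher count lay under its background.

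The 3 members called lower with the block were hypoxia genes. The log2 change of Bnip3 from LPS was -1.38 (SE 0.26, edgeR adjusted p 0.0607). The log2 ratio of its CPM was -1.76 between the lane 3 libraries and -1.06 between those of lane 6. With the block the change of Bnip3 was -1.40 (edgeR adjusted p 1.46e-21, with a range of 1.46e-21 to 0.112 over the alternatives). Ankrd37 changed by -1.96 (SE 0.35, edgeR adjusted p 0.058), or -2.54 in lane 3 and -1.39 in lane 6. With the block it was -1.95 (edgeR adjusted p 1.04e-13, range 1.04e-13 to 0.0635). Kdm3a had -1.08 (SE 0.28, edgeR adjusted p 0.117), or -1.17 in lane 3 and -1.01 in lane 6, and -1.08 with the block (edgeR adjusted p 3.45e-13, range 3.45e-13 to 0.382). All 3 genes were thus lower with AGE+LPS in both lanes. Without the block, edgeR called Ankrd37 lower whichever of the 4 libraries was left out, with -1.64 to -2.28. It called Bnip3 lower in all of these fits but the one without replicate 1 of AGE+LPS, where the change was -1.10. Kdm3a was called without replicate 1 of LPS (-1.26) or replicate 2 of AGE+LPS (-1.40), but not without either of the other libraries. With the filter of at least 1 count all 3 were called.

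Other hypoxia genes did not pass in edgeR without the block either, with -0.86 for P4ha1, -0.73 for Higd1a, -0.47 for Egln1 and 0.72 for P4ha2. Hif1a stood at 0.15 (SE 0.30), and its sign turned in some fits with 1 library left out. The median of the hypoxia list was -0.304, with 3 of 15 tested genes positive, and that of the glycolytic list -0.175, with 7 of 21 positive, while the median of all genes was -0.000519. With library size scaling the median of all genes was 0.149, and 5 hypoxia and 10 glycolytic genes were positive.

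Glycolytic genes had values of both signs. The lowest were -0.95 for Hk2, -0.79 for Slc2a1, -0.77 for Pfkl, -0.65 for Pfkp and -0.56 for Hk3. None of these passed in edgeR without the block. Hk2 was called lower without replicate 2 of LPS, at -1.17. Pfkm had the highest value of the list, 1.15 (SE 0.29, edgeR adjusted p 0.111). Its ratio was 0.96 in lane 3 and 1.36 in lane 6, and with the block it was called at 1.16 (edgeR adjusted p 4.46e-06, range 4.46e-06 to 0.324). Among enzymes after the phosphofructokinase step, Aldoa (-0.20), Pgam1 (-0.19), Pgk1 (-0.17) and Pkm (-0.02) were below 0, and Tpi1 (0.04), Ldha (0.21), Gapdh (0.39), Eno1 (0.48) and Aldoc (0.79) above it, none of them called. The sign of Pkm turned to 0.13 with library size scaling, and those of Aldoa, Pgam1, Pkm, Tpi1 and Gapdh turned in some fits with 1 library left out. The lactate exporter Slc16a3 stood at -0.09, and at 0.06 with library size scaling, and its sign also turned with 1 library left out.

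The comparison of FruArg+LPS with LPS asked the same of FruArg, and it too shares the LPS libraries. edgeR called 0 members higher and 0 lower, and 0% of all 12071 genes in either direction. At an unadjusted p below 0.05, 7 members were higher and 2 lower, against 6.54% and 6.24% of all genes, so that the lower count was no larger than its background. DESeq2, which tested 39 members and 21303 genes in all, called 3 higher and 0 lower, against 0.432% and 0.488%, and the 3 were Aldoc, Gapdh and Eno1. With the block edgeR called these 3 higher, against 2.87% of all genes, and 0 lower, against 3.48%, where 5 were lower at an unadjusted p below 0.05, against 15.7%. DESeq2 with the block called 3 higher and 0 lower, against 0.657% and 1.08%. Without the fold minimum the block in edgeR gave 11 higher and 2 lower, against 8.23% and 9.36% of all genes.

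The genes called were glycolytic enzymes. In LPS vs control with the block, Eno1 (0.56, edgeR adjusted p 0.00362) and Aldoc (-0.62, edgeR adjusted p 0.0464) passed the adjusted p but not the fold minimum, and Gapdh passed neither. Gapdh (ENSMUSG00000057666, chr6:125161715-125166467), the glyceraldehyde phosphate dehydrogenase, was at 76.5 and 66.5 CPM in the control libraries, 105 and 73.6 with LPS, 155 and 78.9 with AGE+LPS and 337 and 163 with FruArg+LPS. Both FruArg+LPS libraries were over all the others, and the replicates lay apart, replicate 2 at 0.484 of replicate 1. The log2 change of Gapdh from LPS was 1.53 (SE 0.36, edgeR adjusted p 0.21), or 1.69 in lane 3 and 1.15 in lane 6. With the block it was 1.46 (edgeR adjusted p 1.2e-09, range 1.2e-09 to 0.52). Without replicate 1 of FruArg+LPS it was 0.91 and without replicate 2 it was 1.95.

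Aldoc (ENSMUSG00000017390, chr11:78322968-78327781), an aldolase isoform, was at 13.2 and 16.7 CPM in the control libraries, 10.3 and 9.46 with LPS, 20.04 and 14.2 with AGE+LPS and 40.7 and 23.6 with FruArg+LPS. Eno1 (ENSMUSG00000063524, chr4:150236721-150248879), an enolase, was at 115 and 113 CPM in the control libraries, 198 and 144 with LPS, 281 and 195 with AGE+LPS and 416 and 306 with FruArg+LPS. In both genes the FruArg+LPS libraries were the highest of all 8. The log2 change of Aldoc from LPS was 1.74 (SE 0.35, edgeR adjusted p 0.18), or 1.98 in lane 3 and 1.32 in lane 6, and 1.69 with the block (edgeR adjusted p 2.9e-06, range 1.32e-06 to 0.257). That of Eno1 was 1.12 (SE 0.28, edgeR adjusted p 0.213), or 1.07 in lane 3 and 1.09 in lane 6, and 1.12 with the block (edgeR adjusted p 1.44e-06, range 1.12e-07 to 0.717). Without the block, Aldoc (2.08), Gapdh and Eno1 (1.31) were called when replicate 2 of FruArg+LPS was left out, and Aldoc (1.81) and Gapdh when replicate 1 of LPS was.

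Other glycolytic members had positive values that did not pass without the block, 0.96 for Pfkm, 0.78 for Slc16a3, 0.76 for Ldha, 0.71 for Pgk1, 0.71 for Pgam1 and 0.58 for Aldoa. Slc16a1 had -0.66, Hk2 -0.46 and Slc2a1 0.15. The median of the glycolytic list was 0.40, with 17 of 21 tested genes positive, and that of the hypoxia list 0.125, with 8 of 15 positive, against -0.0123 for all genes. Hk3, counted among the 17, was negative with library size scaling, with DESeq2 and with other alternatives. The hypoxia genes called lower with AGE+LPS under the block had values of -0.06 for Bnip3 (SE 0.23), -0.75 for Ankrd37 and -0.72 for Kdm3a with FruArg+LPS, and Kdm3a passed the adjusted p with the block (edgeR adjusted p 0.00462) but not the fold minimum. Hif1a had -0.15. The signs of Slc2a1, Bnip3 and Hif1a turned in some fits with 1 library left out.

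**Figure D2:**
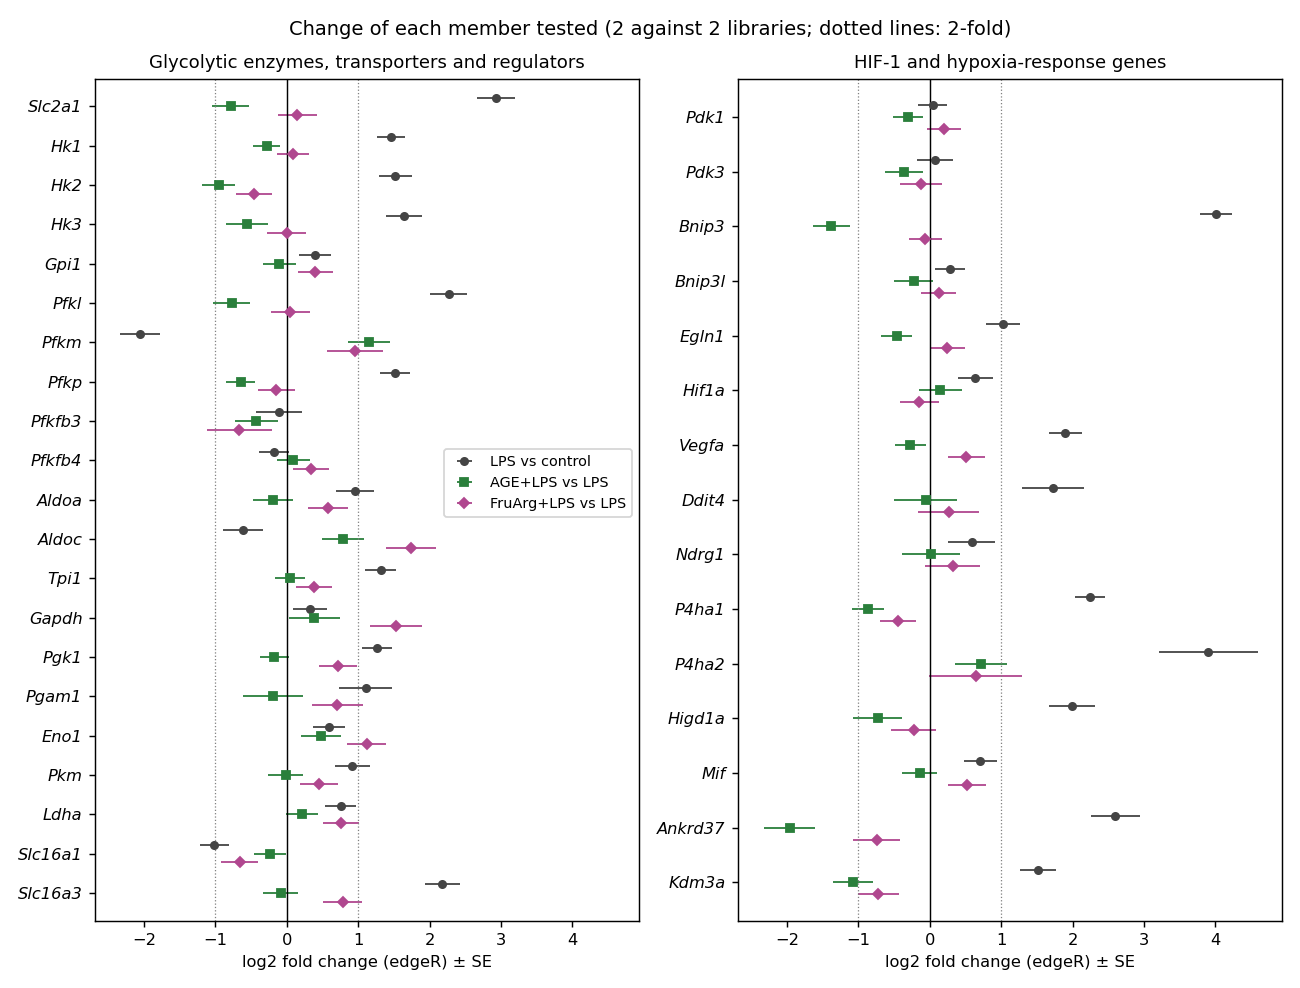
Each point is the edgeR log2 fold change of 1 tested member, with its SE as a bar, for LPS vs control, AGE+LPS vs LPS and FruArg+LPS vs LPS, with glycolytic members in the left panel and hypoxia members in the right; dotted lines mark a 2-fold change. All 15 hypoxia members lie right of 0 for LPS vs control, 12 of them with library size scaling, while Bnip3 lies at -1.38 for AGE+LPS and -0.06 for FruArg+LPS.

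A change past the threshold with one agent and not with the other does not show that the agents differ, so FruArg+LPS was compared directly with AGE+LPS. The doses were 3 mM of 1 compound and 0.5% by volume of an extract, and they were not matched. edgeR called 0 members higher with FruArg+LPS and 0 lower, and 0% of all 11915 genes in either direction. At an unadjusted p below 0.05, 16 members were higher and 0 lower, against 3.40% and 2.21% of all genes, and DESeq2 called 0 members and 0% of all genes in either direction. With the block Bnip3 and Gapdh were called higher, 2 members against 0.546% of all genes, and 0 lower against 0.352%, where 1 was lower at an unadjusted p below 0.05, against 8.34%. DESeq2 with the block called 2 higher and 0 lower, against 0.0732% and 0.0293%. Without the fold minimum the block in edgeR gave 13 higher and 0 lower, against 2.23% and 0.965% of all genes. The 13 came from both lists, among them Slc2a1, Pfkl, Aldoa, Pgk1, Slc16a3, Egln1 and Vegfa.

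Bnip3 had a log2 difference of 1.31 (SE 0.27, edgeR adjusted p 0.816), or 1.70 in lane 3 and 0.90 in lane 6. With the block it was 1.33 (edgeR adjusted p 0.00135, range 0.000151 to 0.821). Gapdh had 1.13 (SE 0.39, edgeR adjusted p 0.837), or 1.12 in lane 3 and 1.05 in lane 6, and 1.12 with the block (edgeR adjusted p 0.00135, range 0.000153 to 1). Both were higher with FruArg+LPS in each lane. Without the block, Gapdh was called without replicate 1 of AGE+LPS (1.70) and Bnip3 without replicate 2 of AGE+LPS (1.64), and both were called without replicate 2 of FruArg+LPS. Without replicate 1 of FruArg+LPS neither was called, and Gapdh fell to 0.52. With the filter of at least 1 count both were called. Ankrd37 (1.20), Slc2a1 (0.92), Pgk1 (0.88), Slc16a3 (0.86), Pfkl (0.81) and Vegfa (0.77) had positive values and Hif1a a negative one (-0.31), which turned sign without replicate 2 of AGE+LPS. The medians were 0.541 for the glycolytic list, with 18 of 21 positive, and 0.405 for the hypoxia list, with 13 of 15 positive, against -0.0151 for all genes and -0.150 with library size scaling, which also gave 18 and 13.

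Several members have near copies in the genome, and how reads that match several places were counted is not stated. Genes elsewhere that share at least 100 bases at 95% identity or more with a member were found by alignment. Gapdh had 88, of which 86 are annotated as pseudogenes, and together they held 14.1 counts per 100 of Gapdh itself. The share was larger for Gpi1 (86.3, mostly Gm1840), Higd1a (52.8, Gm9790), Mif (33.6), Bnip3 (22.7, mostly Gm16439) and Pkm (20.7, Gm6560), and it was 14.1 for Eno1. The copies of Bnip3 held 6 and 31 counts in the control libraries, 546 and 492 with LPS, 158 and 141 with AGE+LPS, and 96 and 302 with FruArg+LPS. They followed Bnip3 in being low in control and high with LPS. Between the agents they followed it in lane 6 but not in lane 3. In lane 3, before scaling for depth, the copies held 158 counts with AGE+LPS and 96 with FruArg+LPS, where Bnip3 held 490 and 1018. In lane 6 the copies held 141 and 302, where Bnip3 held 707 and 1082. With the counts of the copies added to their members, a choice made after the data were seen, LPS vs control gave 18 members higher and 2 lower, the call of Pgam1 being lost. With the copies and the block, the members called in the co-treatment comparisons were the same as with the block alone. Reads left out for matching several places would be in neither count, so adding the copies cannot show their part. Gapdh stood at 21.6 ± 5.32 CPM per kb with LPS, where Aldoa stood at 806 ± 200.2. The part of its copies in this low level was not tested.

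Some members overlap a gene on the other strand, and whether counting kept the strands apart is not stated. The largest neighbour was Ufsp2, which overlaps Ankrd37. It had 409 and 1697 counts in the control libraries, 1577 and 2491 with LPS, 1384 and 1531 with AGE+LPS, and 879 and 964 with FruArg+LPS. Over all libraries Ufsp2 held 10932 counts where Ankrd37 held 690.0, and Senp1, which overlaps Pfkm, held 1014 where Pfkm held 827. Gpi1, Pfkp, Tpi1 and Gapdh have such neighbours too, and the part of the overlaps in the values was not tested.

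Promoters of the members were searched for the core of the HIF-1 binding motif, ACGTG or GCGTG on either strand, in the 250 bases before each RefSeq transcription start (build GRCm38.p6). The core was present in 28 of the 35 promoters of the glycolytic list (80.0%) and in 14 of the 19 of the hypoxia list (73.7%). It was present in 38.6% of all 32851 promoters and in 56.3% of the 11332 promoters of genes tested in LPS vs control. Promoters of 23 and 15 members were in the reference, and those of Bnip3l and Ndrg1 were not. Promoters of the same gene can overlap, as in Aldoa, Eno1 and Pfkm, so a site can be counted more than once. The lists also hold members that were not tested, such as Eno2 and Ldhb, while the 56.3% covers tested genes only. Shown are those of the members called lower with AGE+LPS under the block, and of Slc2a1 and Gapdh as examples of the glycolytic list, Bnip3 (chr7:138909507-138909756, minus strand), Ankrd37 (chr8:45999851-46000100, minus strand), Kdm3a (chr6:71632918-71633167, minus strand), Slc2a1 (chr4:119108495-119108744, plus strand) and Gapdh (chr6:125165774-125166023, minus strand), each 5′ to 3′ with the core in capitals. Those of Pfkm, Aldoc and Eno1, also called in a co-treatment comparison, are not shown. The promoters shown hold 4, 3, 1, 2 and 2 separate matches, in the order named. For Kdm3a the reference also has 2 other promoters, not shown, with 0 matches each. A match is a description of the sequence and no evidence of binding.
Bnip3: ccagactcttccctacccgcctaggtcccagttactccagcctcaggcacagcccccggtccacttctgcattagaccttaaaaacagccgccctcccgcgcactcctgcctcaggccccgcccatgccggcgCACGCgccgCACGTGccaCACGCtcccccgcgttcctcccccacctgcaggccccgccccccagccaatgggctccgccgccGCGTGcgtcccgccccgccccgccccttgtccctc
Ankrd37: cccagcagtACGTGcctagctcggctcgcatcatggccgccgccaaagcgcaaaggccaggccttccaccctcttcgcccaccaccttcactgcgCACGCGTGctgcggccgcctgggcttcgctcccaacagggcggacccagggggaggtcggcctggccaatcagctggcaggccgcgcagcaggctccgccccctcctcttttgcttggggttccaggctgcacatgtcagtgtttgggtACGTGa
Kdm3a: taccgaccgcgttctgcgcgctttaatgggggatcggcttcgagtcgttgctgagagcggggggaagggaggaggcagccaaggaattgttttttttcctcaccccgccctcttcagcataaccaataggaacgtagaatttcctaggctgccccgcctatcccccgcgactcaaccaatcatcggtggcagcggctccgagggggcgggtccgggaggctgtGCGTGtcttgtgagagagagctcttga
Slc2a1: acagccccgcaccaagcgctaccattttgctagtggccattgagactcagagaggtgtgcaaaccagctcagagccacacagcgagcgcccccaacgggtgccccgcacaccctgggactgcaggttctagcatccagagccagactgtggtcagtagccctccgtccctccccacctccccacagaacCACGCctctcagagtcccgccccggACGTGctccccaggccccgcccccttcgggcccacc
Gapdh: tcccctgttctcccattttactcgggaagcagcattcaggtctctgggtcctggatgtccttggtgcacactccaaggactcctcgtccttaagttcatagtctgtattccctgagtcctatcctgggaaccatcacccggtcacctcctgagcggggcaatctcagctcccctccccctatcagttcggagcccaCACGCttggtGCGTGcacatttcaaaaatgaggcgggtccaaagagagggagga

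Further genes of both pathways, listed but not members, were counted in the same fits. With LPS, 2 of 17 tested other genes of glycolysis and pyruvate use were up-regulated and 3 down-regulated, out of 29 listed, beside the 11.5% and 11.1% of all genes. The largest changes were those of the enolase Eno3 (-3.14) and the sugar transporters Slc2a8 (-2.42) and Slc2a6 (2.16). Of 30 other hypoxia genes, 24 were tested, 9 up-regulated and 4 down-regulated. The carbonic anhydrase Car9 had 21 counts in the control group and 0 with LPS, at least 9.39-fold lower against a floor of 3 counts over the group. The adenylate kinase Ak4 was among the genes with large increases (3.67).

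In AGE+LPS vs LPS, 1 of 16 tested other glycolysis and pyruvate genes was called higher, against 0.292% of all genes, Dlat of the pyruvate dehydrogenase complex (1.98, edgeR adjusted p 0.0358). With the block 4 were, against 4.91%, Dlat, Mpc1 of the mitochondrial pyruvate carrier, Pcx, which carboxylates pyruvate (1.34), and Eno3 (1.23), and 2 of 23 other hypoxia genes were lower, against 4.82%, Ak4 (-1.10) and the lipid droplet gene Hilpda (-1.07). With no block, Hilpda stood at -0.532 without replicate 1 of LPS. Ak4 stood at -0.877 without replicate 1 of AGE+LPS, and Eno3 at 0.832 without replicate 2 of LPS. These values are short of the fold minimum. In FruArg+LPS vs LPS no gene of these lists passed in edgeR without the block, as no gene tested did. The block gave 3 of 17 higher, against 2.87% of all genes, Pcx (1.78), Mpc1 (1.44) and Dlat (1.02), and 1 of 22 other hypoxia genes higher, the metallothionein Mt1 (1.55). Mt1 was also called in FruArg+LPS vs AGE+LPS with the block (1.19). With no block and without replicate 1 of FruArg+LPS, Mpc1 stood at 0.921 and Dlat at 0.91, short of the fold minimum. Mt1 stood at 1.11 there, and at 0.752 in FruArg+LPS vs AGE+LPS. The carbonic anhydrase Car12 had 26 counts with LPS, 28 with AGE+LPS and 0 with FruArg+LPS. Against a floor of 3 counts over the group, FruArg+LPS was at least 4.54-fold lower than LPS and 6.78-fold lower than AGE+LPS. Car12 was already lower with LPS (1.61 and 1.23 CPM) than in the control libraries (4.52 and 5.11 CPM).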

How the data were processed

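The deposited values were counts of single-end reads per Ensembl gene, made by the authors with TopHat2 on GRCm38 and featureCounts. The submitters' processing notes also name edgeR, with no version given for these tools. Strandedness and the handling of reads that match several places are not stated. All 8 libraries were used. Members and other lists were chosen with earlier results of these data known. By rule, values in every library are given for up to 10 members called in each direction in LPS vs control with a mean of at least 5 CPM, for those called in a co-treatment, and for Hif1a, Gapdh and Slc2a1, and of the other pathway genes the 3 largest changes called are named, apart from one gene that is not reported here. P4ha2, Egln3, Car12 and members given by fold change alone were named after their values were seen.

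The fit of a comparison took in only its 4 libraries and was made in R 4.3.3 with edgeR 4.0.16 (filterByExpr, TMM, quasi-likelihood F-test, two-sided, Benjamini-Hochberg over all genes tested). A call needed an adjusted p below 0.05 and a change of 2-fold or more. The settings were tested on simulated data. Alternatives were DESeq2 1.42.0, RLE size factors, library size scaling, filters of at least 1 count in all or 10 in every library, no fold minimum, 4 groups in one fit, the replicate block and leaving out each library. Copies added, and the block without a fold minimum, were chosen after seeing the data. The pairing of replicate numbers was checked by the correlation of replicate differences between groups, which was 0.244 for control with FruArg+LPS and 0.628 for LPS with AGE+LPS, the lowest and highest of the pairs. Symbols, exon lengths and positions came from GENCODE M21 on GRCm38, which matched 45229 of the 46078 genes. Copies were found with blastn 2.17.0, and plots were drawn with Python 3.11.15 and matplotlib 3.10.9.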

Additional observations from a re-analysis of the deposited data

How the results depend on the processing

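In LPS vs control 19 members were called higher and 2 lower. The alternatives gave 15 to 25 higher, and 16 to 22 when 1 library was left out. The lower count was 1 with DESeq2 and 1 with the filter of at least 1 count, where Slc16a1 lost its call, 3 with library size scaling and 3 with the block and no fold minimum, where Aldoc gained one, and 1 to 2 when 1 library was left out. The replicate block ended the call of Pgam1 and changed no other call there. In AGE+LPS vs LPS 0 were called higher (edgeR, with 2 at an unadjusted p below 0.05; DESeq2 0). The count was 1 with the filter of at least 1 count, with the replicate block, with the block in one fit of 4 groups, with DESeq2 and the block and with the block and copies added, 4 with the block and no fold minimum, and 0 to 0 when 1 library was left out. The 0 called lower (edgeR, with 8 at an unadjusted p below 0.05; DESeq2 3) became 3 with DESeq2, 3 with at least 1 count, 2 in one fit of 4 groups, 3 with the replicate block in each of its forms with a fold minimum, 15 with the block and no fold minimum, and 1 to 3 when 1 library was left out.

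In FruArg+LPS vs LPS 0 were called higher (edgeR, with 7 at an unadjusted p below 0.05; DESeq2 3). The count was 3 with DESeq2, 3 with at least 1 count, 3 with the block in each of its forms with a fold minimum, 11 with the block and no fold minimum, and 0 to 3 when 1 library was left out. The lower count of 0 (edgeR, with 2 at an unadjusted p below 0.05; DESeq2 0) became 2 with the block and no fold minimum. In FruArg+LPS vs AGE+LPS 0 were called higher (edgeR, with 16 at an unadjusted p below 0.05; DESeq2 0). The count was 2 with at least 1 count, 2 with the block, 3 with the block in one fit of 4 groups, 2 with DESeq2 and the block, 2 with the block and copies added, 13 with the block and no fold minimum, and 0 to 2 when 1 library was left out. For all of these the cause was not tested. In LPS vs control the share of all genes called is given for the main fit, with and without the fold minimum. In the other comparisons it is given for the main fit, the block with and without the fold minimum, DESeq2, and DESeq2 with the block. Counts of members from the remaining fits stand here without such a share and cannot be read against a background.

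Of the 93 gene changes the text reports by value, 12 turned sign at least once. Gapdh in LPS vs control was -0.0898 with library size scaling. In AGE+LPS vs LPS, library size scaling gave 0.13 for Pkm and 0.0617 for Slc16a3. The values when 1 library was left out ran from -0.055 to 0.146 for Tpi1, -0.455 to 0.113 for Aldoa, -0.628 to 0.406 for Pgam1, -0.19 to 0.80 for Gapdh, -0.215 to 0.21 for Pkm, -0.35 to 0.23 for Slc16a3 and -0.20 to 0.47 for Hif1a. In FruArg+LPS vs LPS they ran from -0.12 to 0.46 for Slc2a1, -0.15 to 0.0197 for Bnip3 and -0.425 to 0.17 for Hif1a, and in FruArg+LPS vs AGE+LPS from -0.59 to 0.0426 for Hif1a. The cause was not tested. Of all 159 gene changes of members and of the other genes named, Car12 apart, 35 turned sign at least once. Of these 35, 11 turned sign other than by leaving out a library. Among all 35 the largest absolute log2 fold change was 0.642. Library size scaling in place of TMM put CPM at 0.876 to 1.23 times its value and moved 53 of 160 member levels by over 1 SD of the replicates. With 1 library left out, the lone library of a group was assumed to vary like the others. Where a group held 3 counts or fewer, depth limited the fold to a bound or a wide interval.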
